A study of Mus musculus with 14 samples.

Results

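The platelet-derived growth factor (PDGF) family of the mouse was taken as the 4 ligand genes *Pdgfa*, *Pdgfb*, *Pdgfc* and *Pdgfd* and the 2 receptor genes *Pdgfra* and *Pdgfrb*, which are 6 of the 49315 genes in the spleen count table and 6 of the 18603 genes in the ovary table. They were matched by gene name. The family was chosen by the spleen contrast itself, in which both receptors were higher in L2-fKO, and the ligands were set beside them. The spleen values of the 6 genes are therefore given as a description without a p-value, and tests are given only for the ovary and for the difference between the sexes.

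Poly(A) RNA was sequenced from the spleen of 4 animals per genotype and from the ovary of 3 per genotype, wild type and L2-fKO. The L2-fKO animals lacked *Zfp36l2*, whose exon 2 had been flanked by loxP sites, and carried the CMV-Cre transgene. The wild-type littermates carried CMV-Cre as well. The ZFP36L2 protein binds AU-rich elements in 3′UTRs and shortens the life of the mRNA. The CMV minimal promoter drives Cre from early embryogenesis in all tissues, so the deletion was not restricted to the cells that express a PDGF gene, and the L2-fKO mice died as pups. The spleens came from age-matched pairs of pups in the first days after birth, and which animals formed a pair and the age of each are not given in the sources used here. The wild-type spleens were from 2 females and 2 males, the L2-fKO spleens from 1 female and 3 males. L2-fKO spleen 3 and L2-fKO ovary 1 carry the same animal code in the labels. The sample labels name the tissue of the first 8 libraries Spleen Organoid and the knockout L2-cKO.

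PDGF ligands are secreted as dimers that bring receptor molecules together at the cell surface, where the receptors phosphorylate each other and recruit signalling proteins. *Pdgfa* and *Pdgfb* encode the classical chains, which platelets store and release, and PDGF-B from endothelial cells recruits pericytes to new vessels. *Pdgfc* and *Pdgfd* encode chains that need proteolysis outside the cell before they bind. *Pdgfra* is typical of fibroblasts and other mesenchymal cells, and *Pdgfrb* of pericytes, vascular smooth muscle and fibroblasts.

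The counts on genes were 39138010 to 45167464 per spleen library, and the reads recovered from the ovary values were 31052510 to 44270070 per library. The level of *Zfp36l2* itself averaged 7.85 ± 1.22 CPM (counts scaled to a common library size) in the knockout spleens against 132.8 ± 32.8 CPM in the controls (SD, n = 4 each). Its normalized counts averaged 926 ± 145 in the knockout ovaries against 4840 ± 83.9 in the controls (SD, n = 3 each), and the genotypes overlapped in neither organ. L2-fKO spleen 4 stood apart and was the highest L2-fKO library in the summed levels of the fibroblast, mural, endothelial and macrophage markers, so the fold changes of the 6 genes, the ratios and the list counts in the spleen are also given without it. Its summed erythroid level, 7582 CPM, was the lowest of the L2-fKO spleens, the others being at 11594 to 15757 CPM. The wild-type spleens were at 8142 to 9840 CPM. Wild-type spleens 1, 2 and 4 held mRNA of pancreatic acinar genes, with a summed level of 429.7, 109.3 and 380.1 CPM, while wild-type spleen 3 had 0.943 CPM and the L2-fKO spleens 0.750 to 2.19 CPM.

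The 6 genes lie on chromosomes 5 (*Pdgfa* and *Pdgfra*), 15 (*Pdgfb*), 3 (*Pdgfc*), 9 (*Pdgfd*) and 18 (*Pdgfrb*) of GRCm38. *Pdgfra* spans 75152292 to 75198215 on the plus strand, and *Pdgfrb* spans 61045150 to 61085061, also on the plus strand. *Pdgfa* spans 138976014 to 138997370 and *Pdgfb* 79995874 to 80014977, both on the minus strand. *Pdgfc* spans 81036416 to 81214040 and *Pdgfd* 6168584 to 6378850, both on the plus strand. The microRNA gene *Mir7025* lies within an exon of *Pdgfra* on the same strand, and reads there cannot be assigned to 1 of them. Exons of *Pdgfa*, *Pdgfc* and *Pdgfra* overlap antisense genes, which the stranded counting of the spleen reads kept apart and for which the counting of the ovary reads is not given in the sources used here.

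The 3′UTRs were searched, on the transcript strand, for the pentamer AUUUA and for the 7-mer UAUUUAU, which contains the pentamer. The 7-mer was found in the longest 3′UTR of 3 ligands, with 1 copy in *Pdgfb* (1408 nt), 1 in *Pdgfc* (1462 nt) and 3 in *Pdgfd* (1942 nt), and in that of neither receptor. *Pdgfra*, with the longest 3′UTR of the family at 3115 nt, held 5 pentamers, *Pdgfrb* (1678 nt) held 1 and *Pdgfa* (1203 nt) held 0. In the *Pdgfra* 3′UTR of median length, 939 nt, there was no pentamer. Among the 14192 genes tested in the spleen that have an annotated 3′UTR, 69.3% held the pentamer and 29.7% the 7-mer in the longest one, and of the 3608 genes whose longest 3′UTR has 1000 to 2000 nt, 32.1% held the 7-mer. The 5 stretches that hold the 7-mer are shown because both receptors lack it, with 11 nt of the GENCODE mouse release 21 transcript on either side, 5′ to 3′, and the 7-mer in capitals.
Pdgfb, 7-mer starting 1357 nt after the stop codon: aauguaaaguuUAUUUAUauuccguauuu
Pdgfc, 7-mer starting at 1205 nt: uggacauauccUAUUUAUuucaauacuag
Pdgfd, first 7-mer, starting at 938 nt: gaagaacaugaUAUUUAUuacacaugagc
Pdgfd, second 7-mer, starting at 1186 nt: cuaucauggaaUAUUUAUagccuaaaaua
Pdgfd, last 7-mer, starting at 1202 nt: auagccuaaaaUAUUUAUguauuaacaaa
The match is one of letters only, and no binding was measured in these libraries.

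**Figure D1:**
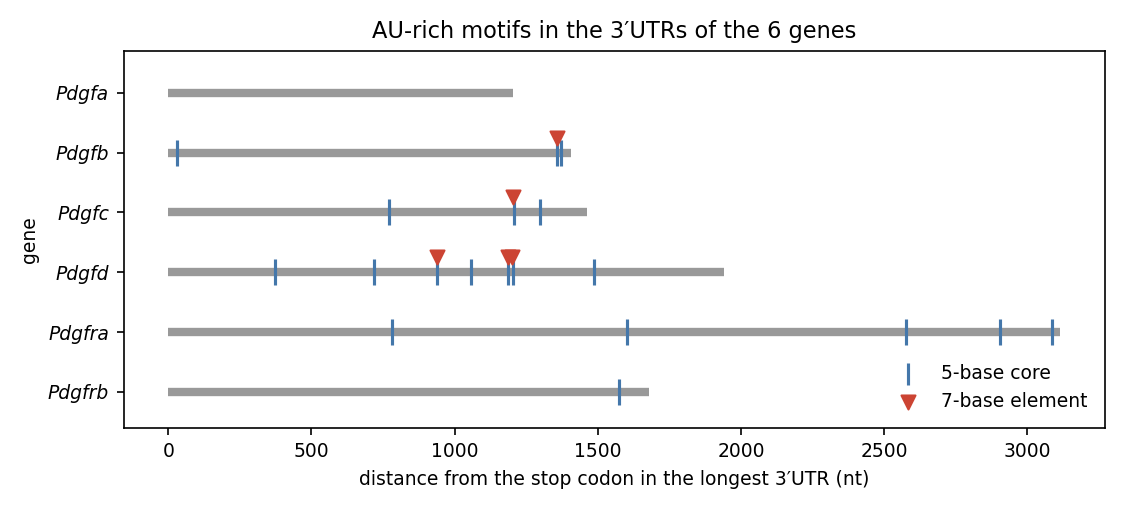
For each gene, its longest 3′UTR drawn to scale as the distance from the stop codon in nt, with ticks for the pentamer and triangles for the 7-mer. Triangles appear on *Pdgfb* (1), *Pdgfc* (1) and *Pdgfd* (3) and on neither receptor.

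Both receptors were higher in every L2-fKO spleen than in any wild-type spleen. *Pdgfra* was at 36.4, 23.3, 30.6 and 19.8 CPM in wild-type spleens 1 to 4 and at 70.2, 80.7, 78.1 and 103.1 CPM in L2-fKO spleens 1 to 4. The mean was 3.02 times as high, 83.0 ± 14.1 (SD, n = 4) against 27.5 ± 7.42 (SD, n = 4), and the log2 fold change was 1.59 (SE 0.20, edgeR). *Pdgfrb* was at 55.4, 54.0, 55.3 and 50.4 CPM in the wild-type and at 107.4, 105.5, 112.4 and 150.6 CPM in the L2-fKO spleens. The wild-type animals were close together and L2-fKO spleen 4 was far above the others. The mean of *Pdgfrb* was 2.21 times as high, 119.0 ± 21.2 (SD, n = 4) against 53.8 ± 2.33 (SD, n = 4), with a log2 fold change of 1.15 (SE 0.13). With L2-fKO spleen 4 left out these values were 1.47 for *Pdgfra* and 1.01 for *Pdgfrb*, and in the males alone 1.97 and 1.21. In wild-type spleens 1, 2 and 4, which held acinar mRNA, *Pdgfrb* was at 50.4 to 55.4 CPM and *Pdgfra* at 19.8 to 36.4 CPM, and in wild-type spleen 3 they were at 55.3 and 30.6 CPM. The part of the acinar mRNA in the receptor values was not tested. These are bulk samples, in which more or fewer cells of a type and more or less RNA per cell cannot be told apart.

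The ligands differed from each other in the spleen. *Pdgfc*, which encodes a ligand of the alpha receptor, was at 5.98, 5.89, 5.22 and 5.14 CPM in the wild-type and at 9.23, 9.05, 9.30 and 13.1 CPM in the L2-fKO spleens. It was the only ligand whose groups did not overlap, with a log2 fold change of 0.87 (SE 0.16), or 0.73 without L2-fKO spleen 4. *Pdgfa* was at 9.21, 11.7, 7.73 and 12.2 CPM in the wild-type and at 7.12, 7.56, 5.86 and 9.05 CPM in the L2-fKO spleens. The *Pdgfa* groups overlapped with the sexes pooled. Within each sex L2-fKO lay below wild type, with 1 L2-fKO female and 3 L2-fKO males. The share of all genes that separate within each sex was not counted, and nothing is read from this split. The log2 fold change of *Pdgfa* was -0.47 (SE 0.19), and -0.57 (SE 0.14) with sex in the model. *Pdgfb* was at 14.8, 16.8, 9.11 and 14.5 CPM in the wild-type and at 15.1, 13.1, 11.6 and 22.6 CPM in the L2-fKO spleens, with a log2 fold change of 0.18 (SE 0.24) that was -0.06 without L2-fKO spleen 4. *Pdgfd*, the lowest of the family with 65 to 177 counts per library in L2-fKO, was at 2.31 to 3.31 CPM in the wild-type and 1.63 to 3.49 CPM in the L2-fKO spleens, with a log2 fold change of -0.10 (SE 0.25). For *Pdgfb* and *Pdgfd* the difference between the genotypes was smaller than its standard error with all 8 libraries. The value of *Pdgfd* was -0.31 (SE 0.23) with L2-fKO spleen 4 left out and 0.15 (SE 0.25) in the males alone, and that of *Pdgfa* was -0.58 and -0.60.

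A gene was called where its adjusted p (edgeR) lay below 0.05 and its log2 fold change beyond 1 in either direction. In the spleen 2 of the 6 genes, the receptors, were called, both as higher, beside 6.01% of the 16911 genes tested (2.9% higher and 3.11% lower). *Pdgfrb*, at 1.15, was just inside the limit on the fold change and *Pdgfc*, at 0.87, just outside it. The genotypes did not overlap for 3 of the 6 genes, all higher in L2-fKO, and for 20.4% of all genes tested, 9.61% being higher. Since this contrast chose the genes, nothing is read from these counts.

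**Figure D2:**
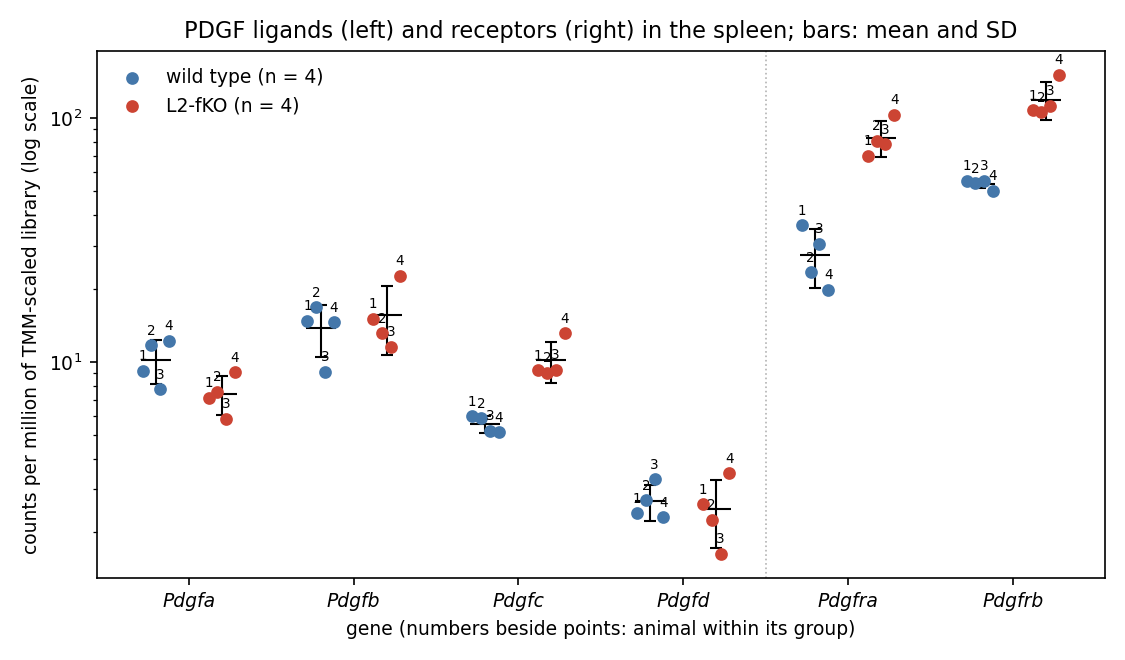
Spleen levels of the 4 ligands and 2 receptors in CPM of the TMM-scaled library on a log axis, with 1 numbered point per animal and the mean and SD as bars (n = 4 per genotype). The L2-fKO points of *Pdgfra* (70.2 to 103.1), *Pdgfrb* (105.5 to 150.6) and *Pdgfc* (9.05 to 13.1) lie above all wild-type points, and those of the other ligands overlap them.

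In the ovary, whose values the choice of the family did not use, *Pdgfrb* was higher in L2-fKO with an adjusted p below 0.05, and *Pdgfra* did not pass the test. The normalized count of *Pdgfrb* was 2779, 2978 and 2490 in wild-type ovaries 1 to 3 and 4463, 4260 and 4025 in L2-fKO ovaries 1 to 3. All L2-fKO ovaries were above all wild-type ovaries, and the mean was 1.55-fold higher. The log2 fold change was 0.63 (SE 0.08, limma adjusted p = 0.0187), which is below the fold limit of a call. With 1 library left out the log2 fold change was 0.56 to 0.69. The limma adjusted p was then above 0.05 without wild-type ovary 1 (0.0968), 2 (0.0710) or 3 (0.0865) or without L2-fKO ovary 1 (0.0534), which shares its animal code with L2-fKO spleen 3, and the adjusted p ranged from 5.08e-07 (DESeq2) to 0.0968 over all alternatives and from 0.0132 to 0.0968 over those with limma. The normalized count of *Pdgfra* was 16959, 14666 and 12560 in the wild-type and 16405, 16957 and 15584 in the L2-fKO ovaries. These groups overlapped, with a log2 fold change of 0.16 (SE 0.11, limma adjusted p = 0.522).

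None of the 4 ligands passed the test in the ovary. *Pdgfb* was at 1008, 1056 and 997 in the wild-type and at 1278, 1161 and 1158 in the L2-fKO ovaries, a log2 fold change of 0.23 (SE 0.08, limma adjusted p = 0.209). *Pdgfd* was at 829, 759 and 696 in the wild-type and at 970, 883 and 895 in the L2-fKO ovaries, a log2 fold change of 0.27 (SE 0.10, limma adjusted p = 0.227). For both ligands the groups did not overlap, as for *Pdgfrb*, which makes 3 of the 6 genes, all higher, beside 25.2% of all genes tested (13.2% higher). *Pdgfa* was at 1146, 1203 and 1185 in the wild-type and at 1141, 1647 and 1310 in the L2-fKO ovaries, and its groups overlapped (log2 fold change 0.20, SE 0.13, limma adjusted p = 0.50). *Pdgfc* varied most, from 1846 to 3657 in the wild-type and from 779 to 2846 in the L2-fKO ovaries. Its log2 fold change of -0.55 (SE 0.47, limma adjusted p = 0.597) was 0.0062 without L2-fKO ovary 2, the library at 779. L2-fKO ovary 2 also had the lowest summed level of the 6 ovary identity genes, 51328 against 75805 to 82164 in the other ovaries, and the part of that in the *Pdgfc* value was not tested.

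Of the 6 genes, 1 had an adjusted p below 0.05 in the ovary, beside 1.58% of the 18504 genes tested (1.23% higher), and 0 passed both limits of a call, beside 0.957% (0.73% higher and 0.227% lower). At an unadjusted p below 0.05 there were 3 genes (*Pdgfb*, *Pdgfd* and *Pdgfrb*), beside 16.8% of all genes. With edgeR on the recovered reads the log2 fold change of *Pdgfrb* was 0.62 (adjusted p = 0.0182) and with DESeq2 0.63 (adjusted p = 5.08e-07), and neither tool gave another member an adjusted p below 0.05. Whether a gene responded differently in the 2 organs was not tested, since the spleen values chose the genes.

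**Figure D3:**
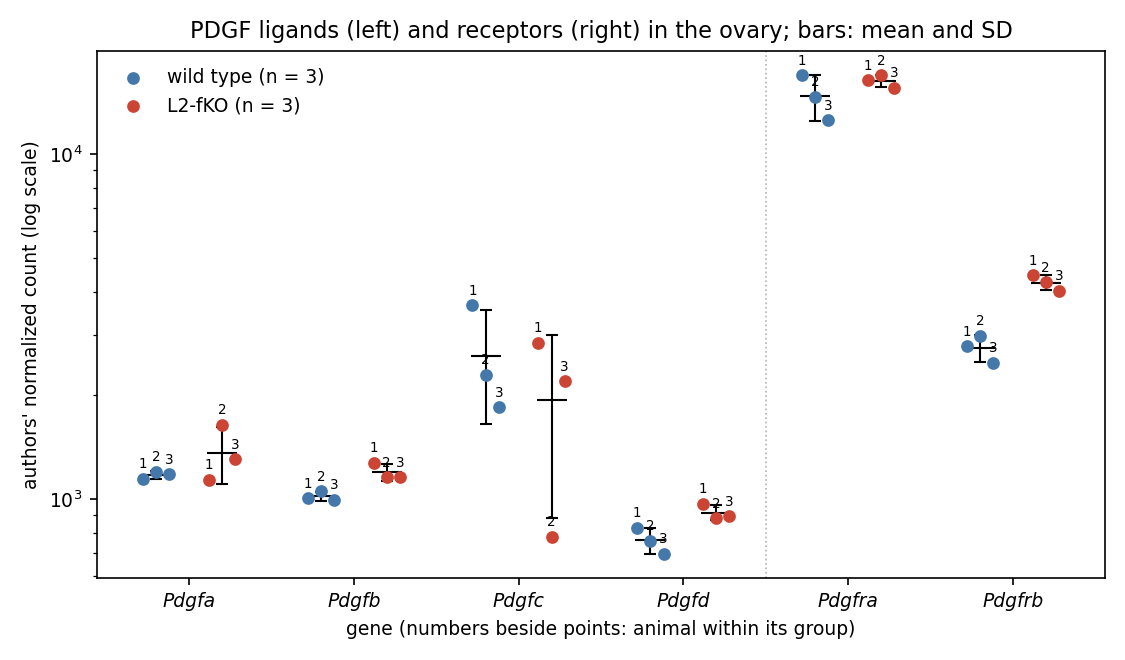
Ovary levels of the 6 genes as the authors' normalized counts on a log axis, with 1 numbered point per animal and the mean and SD as bars (n = 3 per genotype). *Pdgfrb* separates the genotypes (2490 to 2978 against 4025 to 4463), while *Pdgfra* overlaps and *Pdgfc* has a low point at 779 in L2-fKO ovary 2.

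**Figure D4:**
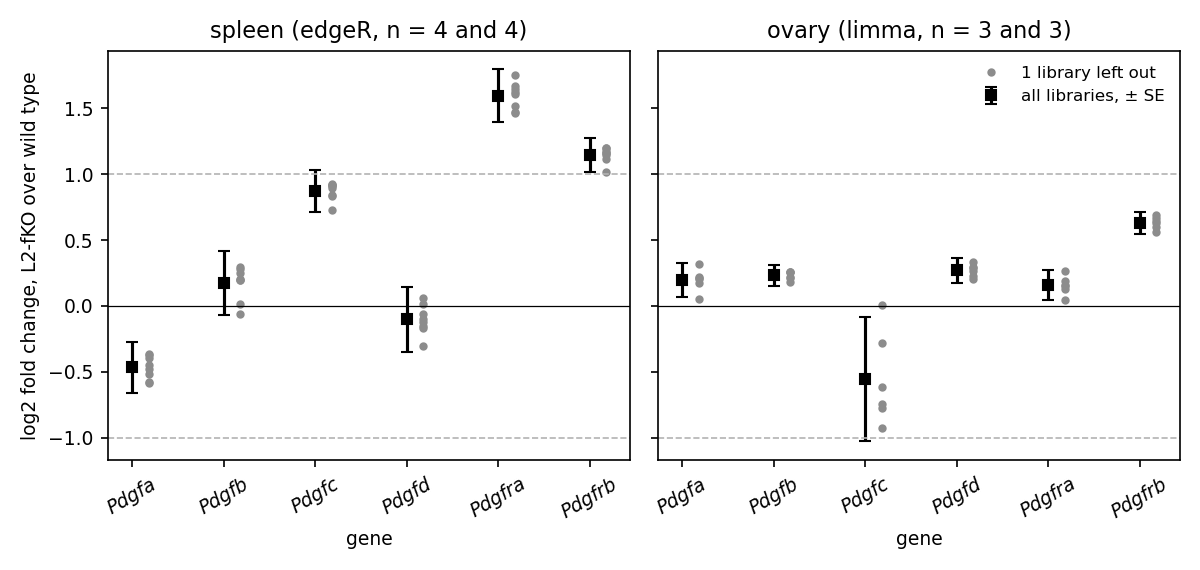
Log2 fold change of L2-fKO over wild type in the spleen (edgeR) and the ovary (limma), with the standard error as bars, grey points for the fits with 1 library left out and dashed lines at the fold limit of a call. In the spleen *Pdgfra* (1.59) and *Pdgfrb* (1.15) lie above the limit, and in the ovary *Pdgfrb* (0.63) is the highest of the 6.

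To set the genes beside each other, CPM was divided by the exon length of each gene in kb. The length was that of all annotated exons merged over the transcripts of a gene. It was 10024 nt for *Pdgfra* (9 transcripts), 5478 nt for *Pdgfrb* (2 transcripts) and 3119 nt for *Pdgfa* (7 transcripts). A merged length above that of the mRNA present understates the level per kb. The order of the genes and the ratios between them rest on these lengths. In wild-type spleens *Pdgfrb* was the highest at 9.82 ± 0.425 CPM per kb (SD, n = 4). *Pdgfb* (3.32 ± 0.791), *Pdgfa* (3.28 ± 0.682) and *Pdgfra* (2.75 ± 0.740) followed and overlapped, and *Pdgfc* (1.09 ± 0.0858) and *Pdgfd* (0.851 ± 0.143) were lowest and overlapped too. In L2-fKO spleens *Pdgfra*, at 8.28 ± 1.41 CPM per kb (SD, n = 4), was second to *Pdgfrb* at 21.7 ± 3.88 and above every ligand. The order of the receptors was the other way round in the ovary, where wild-type levels were 39.5 ± 5.90 CPM per kb for *Pdgfra* and 13.5 ± 1.21 for *Pdgfrb* (SD, n = 3). The wild-type ovary had *Pdgfc* at 13.7 ± 4.98, which overlapped *Pdgfrb* and *Pdgfa* (10.2 ± 0.253), and *Pdgfb* (6.59 ± 0.205) and *Pdgfd* (6.49 ± 0.564) overlapped at the lower end. The tables of the organs were normalized apart, so levels are set side by side without a test.

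The balance of receptor to ligand mRNA differed between the genotypes in the spleen, where it is a description. On the per-kb scale the summed receptors were 1.51 ± 0.348 times the summed ligands in wild-type and 3.42 ± 0.432 times in L2-fKO spleens (SD, n = 4 each), while the summed ligands were 8.54 ± 1.32 and 8.91 ± 2.17 CPM per kb. *Pdgfc* made up 13.0 ± 1.92% of the ligand sum in wild-type and 22.7 ± 2.30% in L2-fKO spleens, and *Pdgfa* 38.2 ± 3.36% and 26.9 ± 2.41%. Without L2-fKO spleen 4 the L2-fKO ratio was 3.52 ± 0.478, the ligand sum 7.87 ± 0.790 CPM per kb, and the shares 23.1 ± 2.61% and 27.9 ± 1.90% (SD, n = 3). In the ovary the summed receptors were 1.44 ± 0.0643 times the summed ligands in wild type and 1.73 ± 0.223 times in L2-fKO (SD, n = 3 each), again without overlap (two-sided exact permutation p = 0.1, and 0.18 adjusted as for the next ratio). The ovary ratio of *Pdgfra* to *Pdgfrb* was 2.93 ± 0.354 in wild type and 2.10 ± 0.0845 in L2-fKO (SD, n = 3 each). All L2-fKO ovaries were below all wild-type ovaries in this ratio (two-sided exact permutation p = 0.1, which 3 against 3 cannot go below, and 0.18 adjusted over the 9 ratios, sums and shares compared).

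**Figure D5:**
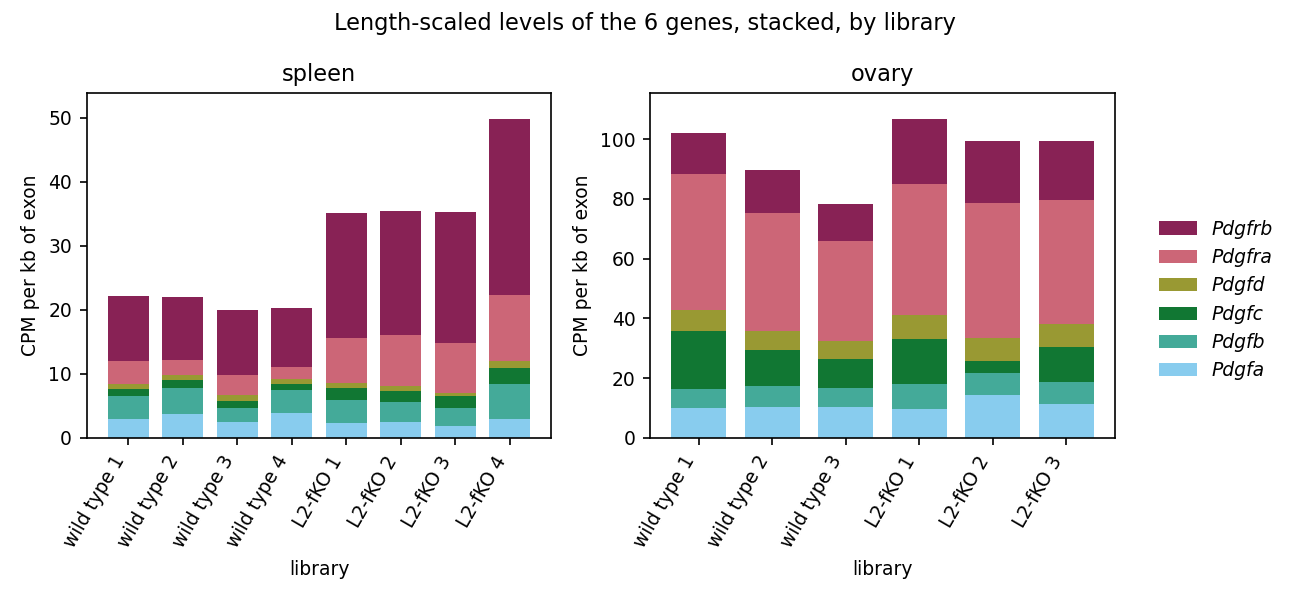
Levels of the 6 genes in CPM per kb of exon, stacked for each library, with the spleen on the left and the ovary on the right on separate axes that start at 0. In the spleen the receptor segments widen from wild type (11.2 to 13.7 in sum) to L2-fKO (26.6 to 37.8), and in the ovary *Pdgfra* is the widest segment of every library.

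The sexes were compared in the spleen with genotype in the model, and 0 of the 6 genes passed (edgeR adjusted p at least 0.967), beside 0.0355% of all genes tested. DESeq2 gave none either, and at an unadjusted p below 0.05 there was 1 of the 6, beside 4.65% of all genes. That gene was *Pdgfa*, which was 7.73 and 9.21 CPM in the wild-type females against 11.7 and 12.2 in the wild-type males, and 5.86 CPM in the L2-fKO female against 7.12 to 9.05 in the L2-fKO males. Its log2 difference, male minus female, was 0.47 (SE 0.15, edgeR adjusted p = 0.967). *Pdgfra* was higher in the wild-type females, at 30.6 and 36.4 CPM, than in the wild-type males, at 19.8 and 23.3, while the L2-fKO female, at 78.1, lay within the L2-fKO males, at 70.2 to 103.1. Its log2 difference was -0.32 (SE 0.20, edgeR adjusted p = 0.967).

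Of 67 other genes of the PDGF pathway, 4 rose and 0 fell in L2-fKO spleens by both limits, beside the 2.9% and 3.11% of all genes, and their median log2 fold change was 0.06, against -0.02 over all genes tested. By the adjusted p alone 11 rose and 3 fell, beside 6.89% and 6.51% of all genes. Without L2-fKO spleen 4, 5 rose and 1 fell by both limits, with the PDGF-induced genes *Ier3* (higher) and *Fosb* (lower) added. Of 7 ligand-processing proteases 1 rose, *Plat*, tissue plasminogen activator, which activates PDGF-C. It went from 1.74 ± 0.575 to 3.56 ± 1.06 CPM (SD, n = 4 each), a log2 fold change of 1.03 (edgeR adjusted p = 0.0434). Of 6 receptor partners none was called, and the most abundant were *Sparc*, a matrix protein that binds PDGF-B (log2 fold change 0.57, edgeR adjusted p = 0.0180), and *Lrp1*, an endocytic co-receptor of PDGFRβ (0.36, adjusted p = 0.176). By the adjusted p alone 3 of the 6 partners rose and 0 fell. They were *Sparc*, *Nrp1* and *Itgav*. *Nrp1* (0.89, edgeR adjusted p = 0.00827) and *Itgav* (0.73, adjusted p = 0.0251) are named after their values were seen. Of 34 adaptors and kinases 1 rose, *Pik3cb*, a catalytic subunit of PI3-kinase, from 40.9 ± 5.82 to 91.2 ± 23.2 CPM (SD, n = 4 each), a log2 fold change of 1.16 (edgeR adjusted p = 0.00389). Of 7 attenuators of the receptor signal 1 rose, *Rgs5*, a regulator of G-protein signalling that also marks pericytes, from 4.85 ± 2.29 to 40.5 ± 15.9 CPM (SD, n = 4 each), a log2 fold change of 3.06 (edgeR adjusted p = 9.06e-04). Of 13 immediate-early and other PDGF-induced genes 1 rose, the chemokine gene *Ccl2*, from 0.317 ± 0.154 to 1.30 ± 0.767 CPM (SD, n = 4 each), a log2 fold change of 2.04 (edgeR adjusted p = 0.0213).

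In the ovary the same 67 genes had a median log2 fold change of 0.045, against -0.004 over all genes tested. Of them 1 rose and 0 fell by both limits, beside 0.73% and 0.227% of all genes. The gene was again *Pik3cb*, from a normalized count of 611 ± 36.1 to 1527 ± 393 (SD, n = 3 each), a log2 fold change of 1.29 (limma adjusted p = 0.0164). In the other lists no gene was called, and the most abundant members were *Pcsk6* and *Furin* among the proteases (log2 fold changes 0.08 and 0.17), *Sparc* and *Lrp1* among the partners (0.12 and 0.06), *Ptprj* and *Ptpn1* among the attenuators (0.56 and -0.09), and *Srf* and *Egr1* among the induced genes (-0.08 and 0.44). None of these 8 had a limma adjusted p below 0.05.

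Some markers of cell types that carry PDGF receptors rose in L2-fKO spleens and most did not pass the test. Of 9 mural genes, which mark pericytes and smooth muscle, 2 rose and 0 fell by both limits, beside 2.9% and 3.11% of all genes tested. They were *Abcc9* and *Kcnj8*, subunits of a potassium channel of pericytes, with log2 fold changes of 1.52 and 1.10 (edgeR adjusted p = 2.76e-04 and 0.00379), and the summed mural level was 389 to 536 CPM in wild-type and 639 to 719 CPM in L2-fKO spleens. The smooth muscle genes *Acta2* (log2 fold change 0.09) and *Cnn1* (-0.11) of the same list, chosen here after their values were seen, did not pass. Of 9 fibroblast genes 1 rose, the proteoglycan gene *Lum* (log2 fold change 1.90, edgeR adjusted p = 5.01e-04), and the summed level was 1073 to 1316 CPM in wild-type and 1352 to 1769 CPM in L2-fKO spleens. Relative to the mean log2 level of the fibroblast list, *Pdgfra* was 1.21 (SE 0.26) and *Pdgfrb* 0.72 (SE 0.12) higher in L2-fKO, and relative to the mural list 1.02 (SE 0.27) and 0.54 (SE 0.13). These differences use the spleen values by which the receptors were chosen, and the list means pool genes that rose with genes that did not. The log2 fold changes of *Abcc9* (1.52), *Kcnj8* (1.10) and *Rgs5* (3.06) stand beside 1.15 for *Pdgfrb* and 1.59 for *Pdgfra*. *Rgs5* is from the list of attenuators. *Cspg4*, a pericyte gene from the list of receptor partners, did not rise, at 1.45 CPM in wild-type and 1.43 CPM in L2-fKO spleens. Its log2 fold change was -0.01 (edgeR adjusted p = 0.985). *Rgs5* and *Cspg4* were set here after their values were seen. By the adjusted p alone 4 of 9 mural and 2 of 9 fibroblast genes rose and 0 fell, beside 6.89% and 6.51% of all genes. Without L2-fKO spleen 4 the counts of called genes were again 2 of 9 mural and 1 of 9 fibroblast genes. By the adjusted p alone 4 and 1 then rose.

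Other markers in the spleen gave the following counts by both limits, beside 2.9% higher and 3.11% lower among all genes tested. All 13 platelet and megakaryocyte genes fell, among them *Gp6*, the collagen receptor of platelets (log2 fold change -6.41, edgeR adjusted p = 8.84e-06). Their summed level was 779 to 1467 CPM in wild-type and 46.0 to 57.2 CPM in L2-fKO spleens. The levels of *Pdgfa* and *Pdgfb*, the ligands that platelets carry, overlapped between the genotypes with the sexes pooled. Within each sex *Pdgfa* was lower in L2-fKO, at 5.86 CPM in the only L2-fKO female against 7.73 and 9.21 in the wild-type females. In the males *Pdgfa* was at 7.12 to 9.05 CPM against 11.7 to 12.2. The log2 fold change of *Pdgfa* was -0.47 (SE 0.19) with the sexes pooled and -0.57 (SE 0.14) with sex in the model. *Pdgfb* overlapped within each sex too, and its values were 0.18 (SE 0.24) and 0.06 (SE 0.22). The part of the platelet genes in the values of *Pdgfa* and *Pdgfb* was not tested. None of 9 endothelial, 8 macrophage, 6 erythroid or 6 spleen identity genes was called, nor any of the 3 ovary identity genes tested. By the adjusted p alone 1 endothelial, 2 macrophage and 1 spleen identity gene rose and 0 fell, beside 6.89% and 6.51% of all genes. The summed endothelial level was 472 to 591 CPM in wild-type and 598 to 878 CPM in L2-fKO spleens, and the summed macrophage level 448 to 838 CPM and 771 to 1364 CPM. Of the 5 acinar genes tested 5 fell, *Pnliprp1* and *Cel* most (log2 fold changes -8.71 and -8.49, edgeR adjusted p = 0.00756 and 0.00869). These differences rest on wild-type spleens 1, 2 and 4. In wild-type spleen 3 the acinar sum, 0.943 CPM, lay within that of the L2-fKO spleens, 0.750 to 2.19 CPM. Ovary identity genes summed to at most 1.40 CPM. The number of called genes in each of these lists was the same without L2-fKO spleen 4. The part of any marker list in the receptor values was not tested.

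In the ovary none of the marker genes was called, 0 of 9 mural, 9 fibroblast, 9 endothelial, 8 macrophage, 8 platelet, 6 erythroid, 7 acinar, 3 spleen identity and 6 ovary identity genes tested. The summed endothelial level was 13335 to 14022 in wild-type and 16680 to 18216 in L2-fKO ovaries, and the summed macrophage level 2197 to 2324 and 2694 to 3677. The summed acinar level was 1474 to 1774 in wild-type and 681 to 824 in L2-fKO ovaries. The most abundant acinar genes, *Cpa1* and *Pnliprp1*, had log2 fold changes of -2.26 and -0.31 (limma adjusted p = 0.0698 and 0.638). Most of the difference in the acinar sum, on average 1619 in wild type and 754 in L2-fKO, was that of *Cpa1*. *Cpa1* averaged 1135 ± 183 and 274 ± 165, and *Pnliprp1* 239 ± 56.8 and 198 ± 70.5 (SD, n = 3 each). The part of the acinar mRNA in the ovary values was not tested. By the adjusted p alone 1 endothelial and 1 mural gene rose, beside 1.23% of all genes tested. They were the most abundant endothelial marker, *Cdh5* (log2 fold change 0.38, limma adjusted p = 0.0424), and *Notch3*, a receptor of mural cells (0.59, adjusted p = 0.0323). The pericyte genes *Abcc9*, *Kcnj8* and *Rgs5* had log2 fold changes of 0.77, 0.54 and 0.46 (limma adjusted p = 0.118, 0.169 and 0.149), beside 0.63 for *Pdgfrb*. *Notch3* and these 3 genes were chosen for the ovary after their values were seen. The 9 mural genes had a median log2 fold change of -0.204. The most abundant of them, *Acta2* and *Myh11*, had log2 fold changes of -0.26 and -0.38 (limma adjusted p = 0.789 and 0.737). The summed mural level varied within the groups, from 25507 to 46327 in wild-type and from 22374 to 57380 in L2-fKO ovaries. *Pdgfrb* was 0.32 (SE 0.05) higher in L2-fKO ovaries relative to the mean log2 level of the endothelial list and 0.56 (SE 0.14) relative to the fibroblast list. The difference was 0.595 (SE 0.433) relative to the mural list and -0.03 (SE 0.17) relative to the macrophage list. The *Pdgfrb* groups did not overlap relative to the endothelial and fibroblast lists and overlapped relative to the macrophage and mural lists. The part of these cell types in the ovary value of *Pdgfrb* was not tested.

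The 6 genes did not vary as 1 block from animal to animal. As deviations from the genotype means on the log2 scale, *Pdgfra* and *Pdgfrb* had a Pearson correlation of 0.65 over 8 spleens and 0.61 over 6 ovaries, and of 0.74 without L2-fKO spleen 4. *Pdgfc* and *Pdgfrb* had 0.93 over 8 spleens, which was 0.52 without L2-fKO spleen 4 and 0.23 over the ovaries. *Pdgfa* and *Pdgfb* had 0.85 over the spleens and -0.63 over the ovaries. Among 11188 genes with a mean normalized count of at least 100 in both organs, those most like a member by the lower of its spleen and ovary correlations were *Adgrl2*, *Dcaf5* and *Rnf149* for *Pdgfrb* (lower correlation 0.94, 0.92 and 0.91) and *Fam35a*, *Elk1* and *Kat6b* for *Pdgfra* (0.90, 0.89 and 0.89). For the ligands they were *Naxe*, *Ckb* and *Nrgn* (*Pdgfa*, 0.95, 0.93 and 0.92), *Tek*, *Psmb8* and *H2-M3* (*Pdgfb*, 0.90, 0.88 and 0.88), *Gpr35*, *Arrdc1* and *Btnl9* (*Pdgfc*, 0.97, 0.95 and 0.95) and *Scube3*, *Cdk14* and *Slc5a3* (*Pdgfd*, 0.92, 0.90 and 0.90). The points share libraries and their depth and few animals stand behind each value, so the correlations are descriptions.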

How the data were processed

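Reads had been trimmed (Trimmomatic 0.36), aligned to GRCm38 (STAR 2.5.2b) and assigned uniquely to exons (featureCounts, Subread 1.5.2), in the spleen with regard to strand. The spleen file as deposited holds whole-number counts per gene. For the ovary the authors deposited normalized values (signal), which are counts divided by 1 size factor per library. Whole reads were recovered from 100.0% of these values (tolerance 0.001 of a read). The log2 fold changes, p-values and adjusted p-values that the authors deposited come from their own DESeq2 comparison and were not used.

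Spleen counts were tested with edgeR 4.0.16 (quasi-likelihood, TMM) after keeping genes that reached 10 counts in 4 or more libraries. Ovary values were tested with limma 3.58.1 (trend) on log2(value + 1), after keeping genes that reached 10 in 3 or more libraries, a scale that understates fold changes of low genes. All 6 members passed both filters. CPM are scaled to the TMM-adjusted library size. p-values carry the Benjamini-Hochberg adjustment over all genes tested, and a call needs an adjusted p under 0.05 with a log2 fold change beyond 1 either way. DESeq2 1.42.0, R 4.3.3, Python 3.11.15 and scipy 1.17.1 were also used. The tests were run on simulated counts with 200 genes changed, and DESeq2, other filters, pseudocounts, sex and left-out libraries were tried. Exon lengths and 3′UTRs are from GENCODE mouse release 21.

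The members and gene lists were chosen with earlier results of these data known. By rule, the genes to name from a list were the 2 called ones with the largest change, or with none called the 2 most abundant. 1 gene of these is not reported here, marker lists without a call are given mostly by counts and sums, and genes named outside the rule are marked as such. Counts and ratios without L2-fKO spleen 4 were added after seeing the data. Sequencing depth limits the precision of the lowest genes, and the counting error is only part of the spread between animals. Each library is 1 animal.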

Additional observations from a re-analysis of the deposited data

Results flagged for a closer look

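For 2 of 12 groups of 4 spleens (6 genes, 2 genotypes) 1 library lay far from the other 3 by Dixon's test of the gap over the range, and chance flags about 5% of groups. In both the library was L2-fKO spleen 4. *Pdgfrb* was at 150.6 CPM there and at 105.5 to 112.4 CPM in the other L2-fKO spleens, a gap of 0.847 of the range. *Pdgfc* was at 13.1 CPM there and at 9.05 to 9.30 CPM in the others, a gap of 0.938 of the range. This library was the highest L2-fKO spleen for both genes, so leaving it out could not change the lack of overlap with the wild type. Without it the log2 fold change was 1.01 for *Pdgfrb* and 0.73 for *Pdgfc*.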

How the results depend on the processing

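In the spleen 1016 genes were called, and 659 (without wild-type spleen 4) to 1083 with 1 library left out. In the ovary limma called 177 genes, DESeq2 on the recovered reads 407, and limma 29 to 186 with 1 library left out, the counts being 43, 29 and 37 without wild-type ovary 1, 2 or 3 and 93 without L2-fKO ovary 3. Between the sexes 6 genes were called, and 5 to 8 with 1 library left out. With the replicate block 800 genes were called in the spleen and 268 in the ovary. The study's age-matched pairs are not tied to the labels' numbers, which were not taken as pairs, since same-numbered spleens had correlations of their deviations from -0.31 to 0.183 and ovaries from 0.072 to 0.382, and 2 wild-type spleens carry the number 3 in the labels, the second being called 4 here. Under the block the log2 fold change was 1.62 for *Pdgfra* and 1.13 for *Pdgfrb* in the spleen, and 0.63 for *Pdgfrb* in the ovary (limma adjusted p = 0.0132). Over the 15 spleen alternatives *Pdgfra* stayed between 1.46 and 1.97, *Pdgfrb* between 1.01 and 1.21, *Pdgfc* between 0.73 and 0.92 and *Pdgfa* between -0.60 and -0.37, while *Pdgfb* (-0.0575 to 0.297) and *Pdgfd* (-0.307 to 0.151) changed sign. *Pdgfc* in the ovary reversed without L2-fKO ovary 2 (0.0062, and -0.93 to 0.0062 over the left-out libraries). Log2 differences between the sexes that lay near 0 also changed sign, *Pdgfrb* without a filter on low counts (0.0133) and with a library left out (-0.0854 to 0.0415), *Pdgfc* (-0.0229 to 0.129) and *Pdgfd* (-0.185 to 0.417). Without a filter on low counts the median log2 fold change of all genes in the spleen was -0.109. The cause of these shifts was not tested. Groups of 3 or 4 animals and the few counts of *Pdgfd* limit what could be detected.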

Other observations

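The PDGF receptors belong to a larger family of receptor tyrosine kinases with the receptors of stem cell factor, CSF1, FLT3 ligand and the VEGFs. Of 6 such receptors 0 rose and 1 fell in L2-fKO spleens by both limits, beside 2.9% and 3.11% of all genes tested. The one that fell was *Kit*, the stem cell factor receptor of blood progenitors and mast cells, from 61.5 ± 4.68 to 22.3 ± 5.86 CPM (SD, n = 4 each), a log2 fold change of -1.46 (SE 0.18, edgeR adjusted p = 8.32e-04), against 1.59 for *Pdgfra*. By the adjusted p alone 2 also rose, the VEGF receptor genes *Flt1* and *Flt4* (log2 fold changes 0.75 and 0.66, edgeR adjusted p = 0.00543 and 0.0226), and the median of the 6 receptors was 0.60. *Flt1* and *Flt4* were chosen after their values were seen. Of 9 ligands of these receptors 1 rose, *Pgf*, placental growth factor, from 0.675 ± 0.154 to 1.64 ± 0.351 CPM (SD, n = 4 each), a log2 fold change of 1.28 (edgeR adjusted p = 0.00969). In the ovary none of the 6 receptors or 9 ligands was called. The most abundant were *Kit* (log2 fold change 0.55, limma adjusted p = 0.288) and *Kdr*, a VEGF receptor of endothelium (0.44, adjusted p = 0.298), and *Kitl*, stem cell factor (-0.11, adjusted p = 0.615), and *Vegfa* (0.35, adjusted p = 0.0925).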
